A study of Mus musculus with 6 samples.

Results

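Macrophages of the fatty liver can be told apart by what they express, and 10 marker genes of recruited and lipid-associated macrophages were followed here in liver F4/80-positive cells. *Trem2*, *Gpnmb*, *Spp1*, *Cd9*, *Lgals3* and *Lpl* (6 genes) mark lipid-associated macrophages, and *Ccr2*, *Cx3cr1*, *Ly6c2* and *Chil3* (4 genes) mark recruited monocytes and the macrophages that derive from them. The genes were taken by symbol as known markers of the fatty liver, with earlier results of these libraries known, and they are 10 of the 49315 genes counted. The cells came from 3 WT and 3 Lpcat3 KOMac mice on a C57BL/6N background, with 1 RNA library per mouse. Lpcat3 KOMac mice carried Lpcat3 fl/fl alleles and 1 copy of LysM Cre, which is inserted in the *Lyz2* locus and acts in myeloid cells, and WT mice were littermates with Lpcat3 fl/fl alleles and no Cre (LysM +/+), so both groups carried the floxed gene. All mice received an HFD (60% fat) for 16 weeks from 8 to 12 weeks of age, and the cells were collected with F4/80 antibody beads after collagenase perfusion of the liver. The comparison asks how loss of *Lpcat3*, an enzyme that places polyunsaturated fatty acids into phospholipids, in myeloid cells bears on liver macrophages of obese mice.

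In the lean liver most macrophages are Kupffer cells of embryonic origin, which renew themselves in place. During steatosis part of this pool is lost and CCR2-bearing monocytes enter from blood, pass through a state with *Ly6c2* and *Chil3*, and settle as macrophages. Some of them take up lipid and switch on the program of the lipid receptor TREM2, with *Gpnmb*, *Spp1* and *Cd9*, which is also described in obese adipose tissue.

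Levels are in CPM, which are counts scaled to a common library size by the TMM method, and a log2 fold change is Lpcat3 KOMac against WT. Total counts lay between 44954224 and 71392812 per library, and the counts of each pair of libraries differed by more than sampling noise. Means are given with the SD over the 3 mice of a genotype. The WT mean of *Lpcat3* was 70.8 ± 12.5 CPM (SD, n = 3), against 24.1 ± 7.99 CPM (SD, n = 3) in Lpcat3 KOMac cells, so part of the transcript was left. On the log2 scale the targeted gene differed by -1.56 (standard error 0.26), which was not called by edgeR (adjusted p = 1.00) but was by DESeq2 (adjusted p = 0.00286). Macrophage and Kupffer cell transcripts were abundant in all 6 libraries, with *Adgre1*, the gene of F4/80, at 1985 to 3051 CPM, *Csf1r*, the receptor that keeps macrophages alive, at 3882 to 6398 CPM and the Kupffer cell lectin *Clec4f* at 6449 to 12170 CPM. The libraries were not alike within a genotype. WT mouse 2 had the highest level of 9 of 12 resident Kupffer cell genes, among them the receptors *Timd4* and *Marco* at 937.6 and 3168 CPM, while in Lpcat3 KOMac mouse 2 these 2 genes were at 122.9 and 148.5 CPM. Summed levels of 5 hepatocyte transcripts spanned 1746 to 20430 CPM in WT and 4504 to 12980 CPM in Lpcat3 KOMac cells, and were highest in WT mouse 1 and Lpcat3 KOMac mouse 2.

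None of the 10 members differed between genotypes at an adjusted p under 0.05 (quasi-likelihood test of edgeR, Benjamini-Hochberg adjustment). The same test called 0 of all 16134 genes tested (0%), and DESeq2 called 12 genes (0.0868% of the 13823 to which it gave an adjusted p), none of them a member. At an unadjusted p under 0.05 edgeR gave 2 members, *Spp1* and *Chil3*, both higher in Lpcat3 KOMac cells, and 426 of all genes (2.64%; 1.07% of the genes tested were higher and 1.57% lower). Every Lpcat3 KOMac library lay above every WT library for 3 members, *Gpnmb*, *Spp1* and *Chil3*, which held for 2.29% of all genes tested. All 10 log2 fold changes were above 0, against 40.1% of all genes tested, and their median was 0.49 beside -0.04 over all genes; without WT mouse 2, 8 were above 0. The median was 0.52 for the lipid-associated and 0.49 for the monocyte members. All 10 members passed the filter on low counts. With 3 mice against 3 the exact permutation test over single genes cannot give a p below 0.1, and in such bulk RNA more cells of a type and more RNA per cell cannot be told apart.

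**Figure D1:**
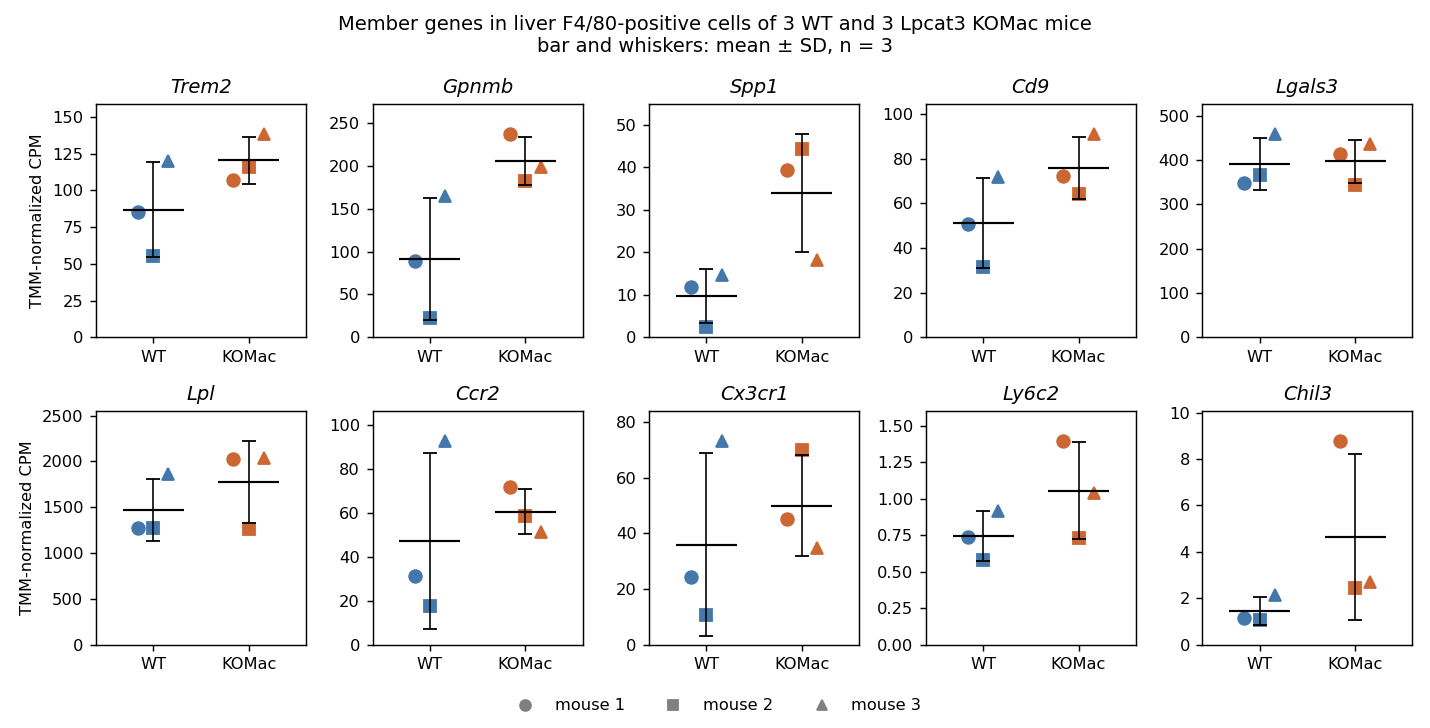
TMM-normalized CPM (linear axes from 0) of the 10 members in 3 WT (blue) and 3 Lpcat3 KOMac (orange) libraries, with point shapes for mice 1 to 3 and horizontal bars and whiskers for the mean ± SD. The groups do not overlap for *Gpnmb*, *Spp1* and *Chil3*, and WT mouse 2 (blue square) is the lowest library for 8 of the 10 members.

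*Trem2* (ENSMUSG00000023992, chromosome 17 of GRCm38, 48346401 to 48354147, plus strand) encodes the lipid-sensing receptor from which the lipid-associated state takes its usual definition. Its level was 85.5, 55.2 and 119.9 CPM in WT mice 1 to 3, against 107.2, 115.8 and 138.3 CPM in Lpcat3 KOMac mice 1 to 3. WT mouse 3 lay inside the Lpcat3 KOMac range and the other WT mice below it, so the groups overlapped. The means were 86.8 ± 32.4 CPM and 120.4 ± 16.1 CPM. The log2 fold change was 0.47 (standard error 0.29, 95% interval -0.24 to 1.18; edgeR adjusted p = 1.00), and the two-sided exact permutation test gave p = 0.3.

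*Gpnmb* (ENSMUSG00000029816, chromosome 6, 49036546 to 49070929, plus strand), a lysosome-linked membrane glycoprotein of lipid-loaded phagocytes, stood at 89.0, 22.2 and 164.2 CPM in WT mice 1 to 3, against 236.9, 181.7 and 199.0 CPM in Lpcat3 KOMac mice 1 to 3. The Lpcat3 KOMac libraries were close to each other and all above the highest WT library, while the WT libraries were spread widely. The mean was 91.8 ± 71.1 CPM in WT and 205.9 ± 28.2 CPM in Lpcat3 KOMac cells, a 2.24-fold difference. The log2 fold change of 1.17 had a standard error of 0.68 and a 95% interval of -0.53 to 2.86 (edgeR adjusted p = 1.00), and the exact permutation test gave p = 0.1, the smallest it can give. Without WT mouse 2 the log2 fold change was 0.70, and without WT mouse 3 it was 1.89.

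*Spp1* (ENSMUSG00000029304, chromosome 5, 104435118 to 104441050, plus strand) encodes osteopontin, a secreted ligand of integrins and CD44. It stood at 11.9, 2.52 and 14.5 CPM in WT mice 1 to 3, against 39.4, 44.2 and 18.1 CPM in Lpcat3 KOMac mice 1 to 3. Lpcat3 KOMac mouse 3 lay just above the highest WT mouse and the other Lpcat3 KOMac mice well above it. With means of 9.66 ± 6.33 CPM and 33.9 ± 13.9 CPM, this was the largest genotype difference of the 10 members, 3.51-fold on the fitted scale. Its log2 fold change was 1.81 (standard error 0.71, 95% interval 0.04 to 3.58; edgeR adjusted p = 1.00; exact permutation p = 0.1) and lay between 1.36 and 2.23 with each mouse left out in turn. DESeq2 gave an adjusted p of 0.929 with Benjamini-Hochberg adjustment. The gene shares 309 exonic bases with *Gm42793* on the same strand, which had at most 7 counts in any library.

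*Cd9* (ENSMUSG00000030342, chromosome 6, 125460266 to 125494791, minus strand), a tetraspanin that organizes membrane complexes and marks scar and adipose lipid-associated macrophages, stood at 50.7, 31.3 and 71.9 CPM in WT mice 1 to 3, against 72.2, 64.4 and 91.1 CPM in Lpcat3 KOMac mice 1 to 3. The groups overlapped through WT mouse 3. Its log2 fold change was 0.56 (standard error 0.32, 95% interval -0.22 to 1.35; edgeR adjusted p = 1.00; exact permutation p = 0.2).

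The remaining lipid-associated members were the most abundant and the most even. *Lgals3* (ENSMUSG00000050335, chromosome 14, 47367751 to 47386160, plus strand) encodes galectin-3, a sugar-binding lectin released by activated macrophages, and stood at 348.5, 367.2 and 458.9 CPM in WT mice 1 to 3, against 414.2, 343.1 and 435.8 CPM in Lpcat3 KOMac mice 1 to 3. The highest and the lowest library were WT mouse 3 and Lpcat3 KOMac mouse 2, only 1.34-fold apart, and the log2 fold change was 0.02 with a 95% interval of -0.35 to 0.39 (edgeR adjusted p = 1.00), which leaves out a 2-fold difference in either direction. With each mouse left out it ran from -0.05 to 0.15. *Lpl* (ENSMUSG00000015568, chromosome 8, 68880491 to 68907448, plus strand), the lipase that frees fatty acids from lipoprotein triglycerides, stood at 1273, 1276 and 1858 CPM in WT mice 1 to 3, against 2029, 1262 and 2035 CPM in Lpcat3 KOMac mice 1 to 3. Each group held lower and higher libraries, and Lpcat3 KOMac mouse 2 was the lowest of all. The log2 fold change of *Lpl* was 0.27 (standard error 0.25, 95% interval -0.34 to 0.89; edgeR adjusted p = 1.00; exact permutation p = 0.4).

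**Figure D2:**
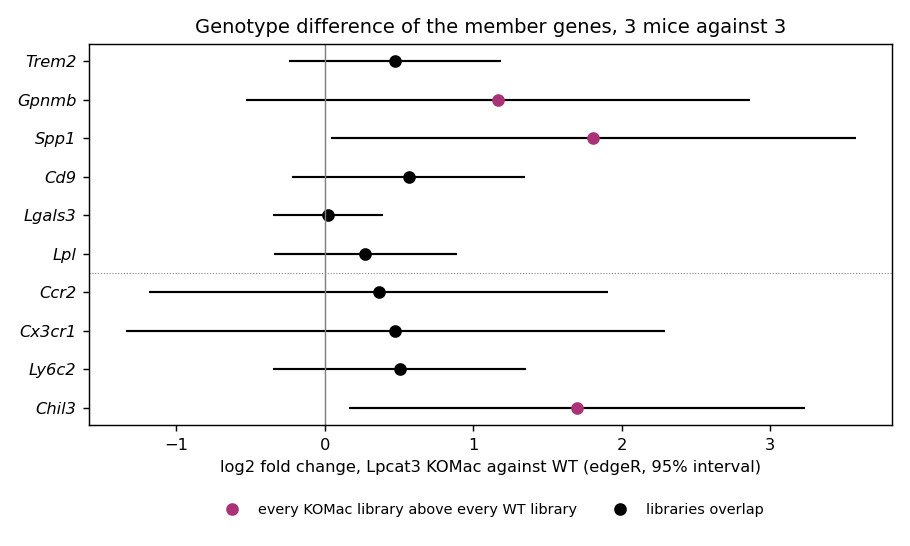
Log2 fold change of each member in Lpcat3 KOMac against WT cells from edgeR, with its 95% interval, lipid-associated members above the dotted line and monocyte members below. The points for *Gpnmb*, *Spp1* and *Chil3*, whose groups do not overlap, are at 1.17, 1.81 and 1.70, the intervals of *Spp1* and *Chil3* begin at 0.04 and 0.16, and the other 8 intervals include 0.

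*Ccr2* (ENSMUSG00000049103, chromosome 9, 124101950 to 124113557, plus strand) encodes the CCL2 receptor that lets classical monocytes leave the marrow and enter tissue. It stood at 31.2, 17.5 and 92.5 CPM in WT mice 1 to 3, against 71.6, 58.6 and 51.2 CPM in Lpcat3 KOMac mice 1 to 3. WT mice held both the lowest and the highest library, with the Lpcat3 KOMac mice between them. The log2 fold change was 0.36 (standard error 0.62, 95% interval -1.18 to 1.91; edgeR adjusted p = 1.00; exact permutation p = 0.4), and it went from -0.03 without WT mouse 2 to 1.31 without WT mouse 3.

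*Cx3cr1* (ENSMUSG00000052336, chromosome 9, 119901616 to 120069879, minus strand), the fractalkine receptor of monocytes and of the macrophages they form, stood at 24.3, 10.5 and 73.0 CPM in WT mice 1 to 3, against 45.0, 70.0 and 34.8 CPM in Lpcat3 KOMac mice 1 to 3. As for *Ccr2*, the Lpcat3 KOMac libraries lay between the lowest and highest WT libraries. Its log2 fold change was 0.48 (standard error 0.73, 95% interval -1.34 to 2.29; edgeR adjusted p = 1.00; exact permutation p = 0.5). It was 0.04 without WT mouse 2, 1.52 without WT mouse 3, and -0.06 without WT mouse 1 and Lpcat3 KOMac mouse 2, the libraries richest in hepatocyte transcripts.

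*Ly6c2* (ENSMUSG00000022584, chromosome 15, 75108158 to 75111970, minus strand) encodes a form of the Ly6C surface antigen that is highest on classical monocytes fresh from blood. It was the lowest member, with 29 to 81 counts per library, at 0.739, 0.579 and 0.919 CPM in WT mice 1 to 3, against 1.40, 0.733 and 1.04 CPM in Lpcat3 KOMac mice 1 to 3. Lpcat3 KOMac mouse 2 lay below 2 of the WT mice. The log2 fold change was 0.50 (standard error 0.35, 95% interval -0.35 to 1.35; edgeR adjusted p = 1.00; exact permutation p = 0.3). Its close paralog *Ly6c1*, known from endothelium, had 3 to 13 counts per library, and 13.9% of the 50-base windows of *Ly6c2* transcripts also occur in *Ly6c1*, so the split of reads between this pair is uncertain.

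*Chil3* (ENSMUSG00000040809, chromosome 3, 106147554 to 106167564, minus strand), which encodes the chitinase-like protein Ym1 of monocytes and alternatively activated macrophages, stood at 1.12, 1.04 and 2.12 CPM in WT mice 1 to 3, against 8.77, 2.43 and 2.70 CPM in Lpcat3 KOMac mice 1 to 3. The groups did not overlap, but 2 of the Lpcat3 KOMac mice lay close to the highest WT mouse and Lpcat3 KOMac mouse 1 far above both. The means were 1.43 ± 0.602 CPM and 4.63 ± 3.58 CPM. The log2 fold change was 1.70 (standard error 0.62, 95% interval 0.16 to 3.24; edgeR adjusted p = 1.00; exact permutation p = 0.1), and without Lpcat3 KOMac mouse 1 it was 0.89. DESeq2 gave an adjusted p of 0.819 with Benjamini-Hochberg adjustment. Its neighbor paralog *Chil4* had at most 2 counts in any library, although 16.9% of the 50-base windows of *Chil3* transcripts are shared with it.

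Compared per kb of exonic length, *Lgals3* (mean 212 CPM per kb) and *Lpl* (155 CPM per kb) stood above the other members. *Cd9*, *Gpnmb* and *Trem2* followed at 31.1, 22.8 and 20.9 CPM per kb, and their ranges over the 6 libraries overlapped, as did those of *Spp1*, *Cx3cr1* and *Ccr2* at 13.2, 9.53 and 7.96 CPM per kb. *Chil3* was at 1.86 and *Ly6c2* at 0.329 CPM per kb. *Chil3* was below both receptors, *Ccr2* and *Cx3cr1*, in every library, and came nearest to them in Lpcat3 KOMac mouse 1 at 5.37 CPM per kb, against 10.6 and 9.99 CPM per kb. Neighbors in this order had overlapping ranges except *Lpl* and *Cd9*, and *Chil3* and *Ly6c2*.

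**Figure D3:**
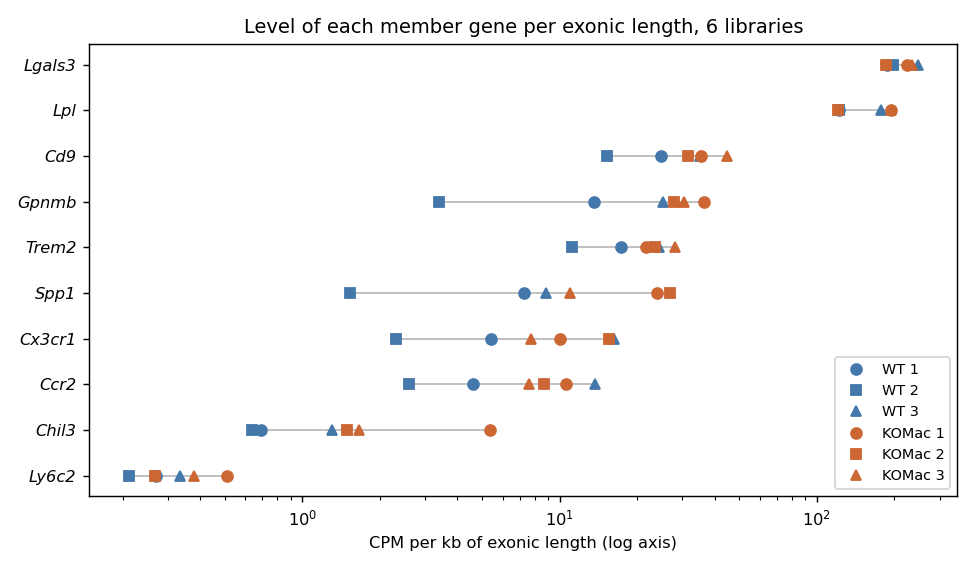
CPM per kb of exonic length (log axis) of each member in the 6 libraries, ordered by mean, with blue for WT, orange for Lpcat3 KOMac and shapes for mice 1 to 3; the gray line spans the range. The widest line is that of *Spp1*, 17.6-fold from WT mouse 2 to Lpcat3 KOMac mouse 2, and the narrowest is that of *Lgals3*, 1.34-fold.

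The members varied among mice of 1 genotype, and WT mouse 2 stood apart. This library was the lowest of the 6 for 8 of the 10 members, all but *Lgals3* and *Lpl*, and it was the lowest for 16.4% of all genes tested. On log2 CPM centred on the mean of each gene over 6 libraries, the 10 members averaged -0.41, -1.21 and 0.33 in WT mice 1 to 3, against 0.67, 0.31 and 0.31 in Lpcat3 KOMac mice 1 to 3. The highest library was 10.7-fold above the lowest for *Gpnmb*, 17.6-fold for *Spp1*, 8.44-fold for *Chil3*, 6.98-fold for *Cx3cr1* and 5.28-fold for *Ccr2*. It was 2.51-fold above the lowest for *Trem2* and 2.91-fold for *Cd9*, and 23.3% of all genes tested spanned at least 3-fold.

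WT mouse 2 thus combined the lowest levels of most members with the highest levels of resident Kupffer cell genes, which averaged 0.59 on the same centred scale, against -0.73 in Lpcat3 KOMac mouse 2. Relative to the Kupffer cell receptor gene *Timd4*, the CPM of *Trem2* was 20.0%, 5.89% and 34.9% in WT mice 1 to 3, against 22.4%, 94.2% and 21.4% in Lpcat3 KOMac mice 1 to 3. The highest ratio was that of Lpcat3 KOMac mouse 2, in which *Timd4* was at its lowest and *Trem2* within the range of the other libraries. Relative to *Clec4f*, the CPM of *Ccr2* was 0.341%, 0.144% and 1.05% in WT mice 1 to 3, against 0.973%, 0.909% and 0.614% in Lpcat3 KOMac mice 1 to 3, again with both extremes in WT mice. Of the 12 resident Kupffer cell genes 1 had a log2 fold change above 0, and the median was -0.25. *Clec4f* and the folate receptor gene *Folr2*, the latter named after its values were seen, were the 2 at an unadjusted p under 0.05 (1.57% of all genes tested were lower at this threshold), with log2 fold changes of -0.44 and -0.45.

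Transcripts of several other liver cells were also low in WT mouse 2, though not those of every type. It was the lowest library for 5 of 5 stellate cell markers, for 4 of 5 markers of liver sinusoidal endothelium, for 4 of 6 dendritic cell markers and for 3 of the 6 neutrophil markers that were tested. It was the lowest for 1 of 5 hepatocyte markers, but their sum there, 1815 CPM, was close to the lowest, 1746 CPM in WT mouse 3. Of the 5 tested markers of T, NK and B cells it was the lowest for 1 and the highest for 3. Summed stellate cell markers spanned 60.9 to 153.5 CPM in WT and 109.3 to 200.1 CPM in Lpcat3 KOMac cells. Summed endothelial markers, mostly *Stab2*, were at 642.9 to 738.8 and 713.3 to 961.0 CPM, with the lowest sum in WT mouse 1. *Stab2* was the only one of the 5 endothelial markers that was not lowest in WT mouse 2. Summed dendritic cell markers, mostly *Clec9a*, were at 22.1 to 60.6 and 35.5 to 41.9 CPM, again lowest in WT mouse 1. The span of *Clec9a* overlaps that of the resident Kupffer cell gene *Clec1b*, at 387.6 to 538.6 CPM, and shared reads were not tested for this pair. The dendritic cell marker *Xcr1* was at 1.05 to 2.06 CPM, and it and *Clec1b* were named after their values were seen. Summed neutrophil markers, mostly *Csf3r*, were at 80.9 to 157.6 and 79.9 to 142.4 CPM and highest in WT mouse 2, with the neutrophil antigen gene *Ly6g* at or under 3 counts in every library. *Csf3r* was highest in WT mouse 2, at 155.5 CPM, and lowest in Lpcat3 KOMac mouse 2, at 74.7 CPM, as were *Timd4* and *Marco*. Whether this sum follows neutrophils was not tested. Of these 4 lists no marker was at 0 in all libraries. The endothelial markers had a median log2 fold change of 0.73 and the stellate cell markers of 0.29, all 10 of them above 0. Of the 6 neutrophil markers tested 2 were higher in every Lpcat3 KOMac library than in every WT library, as were 2.29% of all genes tested. *S100a8*, a neutrophil and monocyte calcium-binding protein gene, lay at 0.719 to 0.875 CPM in WT and 0.947 to 2.19 CPM in Lpcat3 KOMac cells, and *Cxcr2*, a neutrophil chemokine receptor gene, at 0.120 to 0.216 and 0.255 to 0.270 CPM, both named after their values were seen and the latter on 6 to 15 counts per library. Summed markers of cholangiocytes were at 0.319 to 0.862 CPM in WT and 1.04 to 1.37 CPM in Lpcat3 KOMac cells. This sum rests on few reads, as none of its 5 markers had more than 23 counts in a library. Only 3 of them passed the filter on low counts, and the groups overlapped for each single marker. The part of these cells in the levels of the members was not tested.

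**Figure D4:**
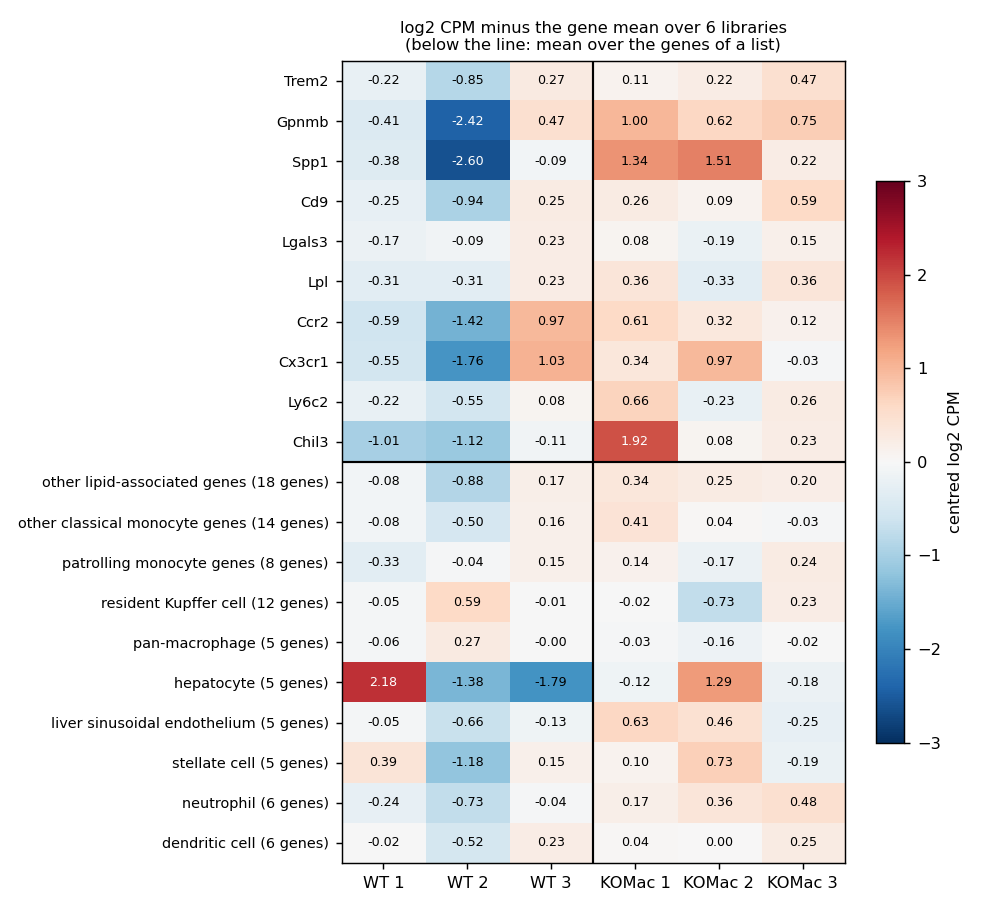
Log2 CPM minus the mean over 6 libraries for each member (upper rows) and averaged over other gene lists (lower rows), in 3 WT and 3 Lpcat3 KOMac libraries, blue below and red above the mean. WT mouse 2 is at -2.42 for *Gpnmb* and -2.60 for *Spp1* and at 0.59 for resident Kupffer cell genes, while the hepatocyte row runs from -1.79 in WT mouse 3 to 2.18 in WT mouse 1.

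With each mouse left out in turn, 0 members were called at an adjusted p under 0.05 in any of the 6 fits. At an unadjusted p under 0.05 the number of members was 0 without WT mouse 1 (12.3% of all genes tested) and without Lpcat3 KOMac mouse 1 (1.09%), and 7 without WT mouse 3 (3.28%). The 7 were *Trem2* (log2 fold change 0.78), *Gpnmb* (1.89), *Spp1* (2.23), *Cd9* (0.89), *Ccr2* (1.31), *Cx3cr1* (1.52) and *Chil3* (2.10). Without WT mouse 2 instead, the log2 fold changes were 0.23 for *Trem2*, 0.70 for *Gpnmb*, 1.36 for *Spp1*, 0.31 for *Cd9*, -0.03 for *Ccr2* and 0.04 for *Cx3cr1*. The number of members at an unadjusted p under 0.05 is not given here for that fit or the remaining ones. WT mouse 3 was the WT library with the highest level of all 10 members. Without WT mouse 2 the median log2 fold change was 0.27 for the lipid-associated and 0.19 for the monocyte members, and without WT mouse 3 it was 0.83 and 1.42.

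**Figure D5:**
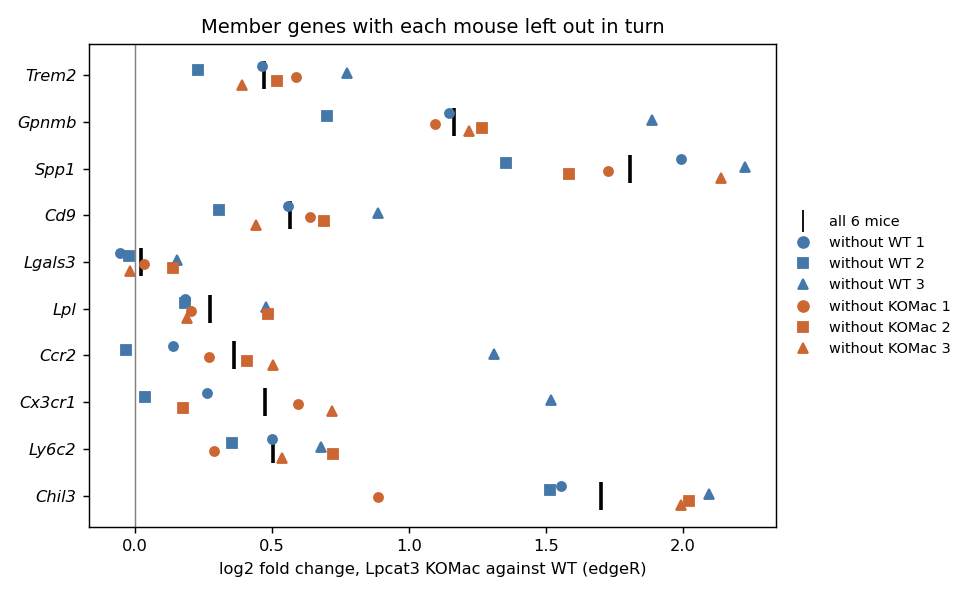
Log2 fold change of each member, Lpcat3 KOMac against WT, from all 6 mice (black line) and with each mouse left out (blue for a WT and orange for a Lpcat3 KOMac mouse). Leaving out WT mouse 3 (blue triangle) gave the highest value for 8 of the 10 members, such as 1.31 for *Ccr2*, leaving out WT mouse 2 (blue square) gave the lowest for *Trem2*, *Gpnmb*, *Spp1*, *Cd9*, *Ccr2* and *Cx3cr1*, and for *Chil3* the lowest, 0.89, was that without Lpcat3 KOMac mouse 1.

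Profiles over the 6 libraries were compared between genes. Among 9070 genes with a mean of at least 10 CPM, the gene with the smallest root mean square difference of centred log2 CPM from *Trem2* was *Cd9*, at 0.10. *Anxa2*, a phospholipid-binding annexin, followed at 0.15, then *Gla*, a lysosomal galactosidase, at 0.19, *Ccnd2*, a cyclin, at 0.21 and *Matk*, a kinase, at 0.22, where a gene with equal levels in all libraries would be at 0.43. Other members were farther from *Trem2*, with *Lpl* at 0.34, *Lgals3* at 0.38 and, beyond the flat profile, *Ccr2* at 0.47, *Cx3cr1* at 0.63, *Gpnmb* at 0.77 and *Spp1* at 1.04. The distance grows with the size of the differences between libraries as well as with their pattern, so a large one need not mean another pattern. *Gpnmb* and *Spp1* were, like *Trem2*, lowest in WT mouse 2, at centred values of -2.4 and -2.6 against -0.85 for *Trem2*. For *Ccr2* the nearest genes given here were *Nes*, *Itga6*, *Sema4d* and *Ptafr* at 0.20 to 0.27, beside 0.80 for a flat profile, and *Cx3cr1* ranked 10 at 0.33. Like *Trem2* and *Ccr2*, all of these nearest genes were lowest in WT mouse 2. They were picked for likeness in profile, so this shared low point follows from the choice. The 6 points behind each distance share the depth and cell makeup of their library.

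Promoter windows are shown for *Trem2* and for the members whose groups did not overlap, which all had their lowest level in WT mouse 2. RefSeq promoters (GRCm38.p6) were matched for 9 of the 10 members (not *Lpl*), in 11 windows of the 250 bases before a gene start. Capitals mark GAGGAA or its other-strand form TTCCTC, the core bound by the macrophage factor PU.1, and all bases read 5′ to 3′ on the strand of the gene.
Trem2, chr17:48346151-48346400, plus strand: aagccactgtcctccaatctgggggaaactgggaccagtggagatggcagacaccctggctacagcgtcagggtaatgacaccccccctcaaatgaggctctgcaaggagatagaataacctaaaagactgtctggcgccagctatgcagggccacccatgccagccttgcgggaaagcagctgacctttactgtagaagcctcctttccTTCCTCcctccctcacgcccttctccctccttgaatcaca
Gpnmb, chr6:49036268-49036517, plus strand: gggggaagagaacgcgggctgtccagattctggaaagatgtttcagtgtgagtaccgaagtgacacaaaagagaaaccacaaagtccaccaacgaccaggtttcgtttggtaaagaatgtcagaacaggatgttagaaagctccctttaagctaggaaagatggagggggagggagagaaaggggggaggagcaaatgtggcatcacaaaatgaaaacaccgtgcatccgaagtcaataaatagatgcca
Spp1, chr5:104434861-104435110, plus strand: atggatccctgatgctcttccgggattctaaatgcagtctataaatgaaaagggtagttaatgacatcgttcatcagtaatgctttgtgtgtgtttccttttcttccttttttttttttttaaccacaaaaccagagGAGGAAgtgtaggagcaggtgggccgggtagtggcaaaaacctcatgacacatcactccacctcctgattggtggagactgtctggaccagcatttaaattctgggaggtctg
Chil3, chr3:106167565-106167814, minus strand: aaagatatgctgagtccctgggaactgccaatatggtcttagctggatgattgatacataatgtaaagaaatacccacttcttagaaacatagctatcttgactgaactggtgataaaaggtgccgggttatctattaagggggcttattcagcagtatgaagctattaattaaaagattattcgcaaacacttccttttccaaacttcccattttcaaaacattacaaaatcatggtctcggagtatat
The core was found in windows of 3 members, *Trem2*, *Spp1* and *Ly6c2*, and in 23.3% of all 32851 promoters of this length. *Gpnmb* and *Chil3*, whose groups did not overlap, like those of *Spp1*, did not hold these letters in their windows. The E-box letters CATGTG (other strand CACATG), a form read by lysosomal gene regulators of the MiT family, were found in the window of 1 member, *Cd9*, and in 12.3% of promoters. CACGTG, the same on both strands, and the AP-1 site TGACTCA (other strand TGAGTCA) were found in 0 windows of members, against 6.02% and 4.46% of promoters. No 2 of these motifs overlapped in a window of a member.

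Genes around TREM2 signaling were read beside *Trem2* itself, and this list held the adaptors *Tyrobp* and *Hcst*, the kinase *Syk*, *Plcg2*, *Inpp5d*, the TREM2 ligand *Apoe* and the shedding proteases *Adam10* and *Adam17*. 0 of its 8 genes passed the test, the median log2 fold change was -0.12, and 1 was above 0. *Tyrobp*, through which TREM2 signals, averaged 779.6 ± 63.8 CPM in WT and 658.7 ± 47.4 CPM in Lpcat3 KOMac cells, with every Lpcat3 KOMac library below every WT library, as for 5.2% of all genes tested (log2 fold change -0.24, standard error 0.10, edgeR adjusted p = 1.00). Relative to *Tyrobp*, the CPM of *Trem2* was 11.6%, 6.47% and 16.0% in WT mice 1 to 3, against 16.2%, 19.0% and 19.6% in Lpcat3 KOMac mice 1 to 3. WT mouse 3 was just below Lpcat3 KOMac mouse 1 in this ratio, while the groups overlapped for *Trem2* itself. The divisor *Tyrobp* was lower in every Lpcat3 KOMac library, and how often ratios of gene pairs separate the groups was not tested. *Apoe*, the most abundant of the list, averaged 26770 ± 5497 CPM and 22750 ± 4362 CPM.

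Among 18 other genes of the lipid-associated state, which handle fatty acids, lysosomes and matrix, 0 passed the test, 15 had a log2 fold change above 0 and the median was 0.25. WT mouse 2 was the lowest library for 13 of the 18, and none was highest there. *Mmp12*, the macrophage elastase, averaged 218.7 ± 125.3 CPM in WT and 467.6 ± 74.4 CPM in Lpcat3 KOMac cells without overlap (log2 fold change 1.10, standard error 0.46, edgeR adjusted p = 1.00). *Atp6v0d2*, a proton pump subunit named after its values were seen, was the other gene without overlap, at a log2 fold change of 1.09, so that 2 of the 18 were higher in every Lpcat3 KOMac library, as were 2.29% of all genes tested. *Clec7a*, the beta-glucan receptor Dectin-1, averaged 516.4 ± 85.1 CPM and 665.3 ± 62.0 CPM, a log2 fold change of 0.37. The abundant cathepsins *Ctsb* and *Ctsd* had log2 fold changes of -0.04 and 0.14.

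The ligands and receptors of the members showed 0 of 13 genes past the test and a median log2 fold change of 0.00. *Ccl2*, the ligand of CCR2, averaged 17.3 ± 8.62 CPM in WT and 18.0 ± 8.75 CPM in Lpcat3 KOMac cells. The osteopontin receptor *Cd44* had a log2 fold change of -0.04 and the integrin chains *Itgb1* and *Itgb3* of -0.09 and 0.83. *Gpihbp1*, the endothelial anchor of lipoprotein lipase, was at a log2 fold change of 0.69 (standard error 0.37, edgeR adjusted p = 1.00).

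Other genes of classical monocytes went in both directions. Of 14 such genes 0 passed the test, 8 had a log2 fold change above 0 and the median was 0.13. *Cd14*, the lipopolysaccharide co-receptor, averaged 200.7 ± 29.8 CPM in WT and 137.1 ± 24.9 CPM in Lpcat3 KOMac cells, with every Lpcat3 KOMac library the lower (log2 fold change -0.55, standard error 0.18, edgeR adjusted p = 1.00). *Ifitm6*, an interferon-induced membrane protein of monocytes, had a log2 fold change of -0.64, likewise without overlap, so that 2 of the 14 were lower in every Lpcat3 KOMac library, as were 5.2% of all genes tested. *F13a1*, the coagulation factor XIII chain of monocytes, named after its values were seen, had one of 1.05. WT mouse 2 was the lowest library for 4 of the 14 and the highest for 4, with *Cd14* and *Ifitm6* among the latter. *Hp* was highest, at 1059 and 727.1 CPM, in WT mouse 1 and Lpcat3 KOMac mouse 2, the libraries richest in hepatocyte transcripts. The part of other cells in the levels of this list was not tested. Among 8 genes of patrolling monocytes 0 passed the test, 4 were above 0 and the median was -0.06. *Spn* and *Pglyrp1* had log2 fold changes of 1.19 and 0.67, and the more abundant *Treml4* and *Itgal* of -0.17 and -0.28. *Treml4* and *Itgal* were highest in WT mouse 2, as were 5 of the 8 genes of this list and 9 of 12 resident Kupffer cell genes. Which cells these transcripts came from was not tested.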

How the data were processed

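RNA of liver F4/80-positive cells from 3 WT and 3 Lpcat3 KOMac mice was sequenced, 1 library for each mouse. Per mouse, the authors deposited the counts of reads on every gene, not normalized. The submitters' processing notes name Trimmomatic 0.36, STAR 2.5.2b, featureCounts of Subread 1.5.2 and the GRCm38 build; the strand setting, the annotation release and the treatment of reads with several matches are not given in the sources used here. Levels of genes that overlap or have close paralogs are therefore uncertain. Members were matched by Ensembl identifier to GENCODE M21 symbols, which 48970 of the 49315 identifiers had.

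Counts were fitted with edgeR 4.0.16 in R 4.3.3 over the 16134 genes that passed its default filter (minimum count 10), with TMM normalization, robust dispersion and only genotype in the model, and the Benjamini-Hochberg adjustment ran over all of them. Log2 CPM used a prior count of 2. The standard error was taken as the size of the log2 fold change over the root of its F value. At 44954224 to 71392812 counts per library, counting error was small beside the spread between mice for the members except *Ly6c2*. *Chil3* had the next lowest counts, and 3 counts were taken as the floor. For single genes a two-sided exact permutation test over samples was added. The fits were tested on simulated data with less spread between libraries than the real data, whose common biological coefficient of variation was 0.391. So the simulation does not show how many real changes the fits can find in these libraries.

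Named were all 10 members, *Lpcat3* and *Lyz2*, close paralogs, the 5 genes nearest to *Trem2* and to *Ccr2* by profile (1 of which is not reported here), in each other list the 2 genes with the smallest unadjusted p and the 2 most abundant per kb, 6 macrophage genes, and the most abundant marker of each other cell type. The members and lists were chosen with earlier results of these data known. *Lyz2*, which holds the Cre, had a WT mean of 6213 ± 1483 CPM (SD, n = 3), against 2322 ± 732 CPM (SD, n = 3) in Lpcat3 KOMac cells.

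Groups and replicate numbers came from the sample labels, which do not say that equal numbers were paired. Alternatives were DESeq2 1.42.0, limma-voom (limma 3.58.1), DESeq2's size factors, total counts alone, other low-count filters, a replicate block, no robust dispersion, hepatocyte transcripts as a covariate, and leaving out each mouse or the 2 mice richest in hepatocyte transcripts.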

Additional observations from a re-analysis of the deposited data

How the results depend on the processing

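No member was called under any alternative run. DESeq2 called 12 of all genes, *Lpcat3* and *Lyz2* among them (adjusted p = 0.00286 and 0.0485), where every edgeR and limma-voom fit called 0; the cause was not tested. Of 160 member values under alternatives 5 fell on the other side of 0, in 3 members. With each mouse left out the log2 fold change ran from -0.0538 to 0.15 for *Lgals3* and from -0.0326 to 1.31 for *Ccr2*, and *Cx3cr1* was at -0.0604 without the 2 libraries richest in hepatocyte transcripts. Same-numbered mice did not deviate together in every pair (correlations across genes of -0.30, -0.60 and 0.36). The highest correlation, 0.67, was between WT mouse 1 and Lpcat3 KOMac mouse 2, the libraries richest in hepatocyte transcripts. With 3 mice per genotype these correlations cannot decide whether mice were paired. With the replicate block 0 genes were called (138 at an unadjusted p under 0.05, against 426), and members were at 0.03 (*Lgals3*) to 2.00 (*Spp1*). Among the other genes named, leaving out each mouse took *Ly6a* from -0.10 to 0.59, *Ctsb* from -0.11 to 0.0487, *Cd44* from -0.13 to 0.10, *Hp* from -0.54 to 2.24, *Treml4* from -0.26 to 0.00272, *Timd4* from -0.91 to 0.11, *Marco* from -1.20 to 0.48, *Csf1r* from -0.36 to 0.00844, *Alb* from -0.74 to 2.04, *Stab2* from -0.10 to 0.15, *Csf3r* from -0.41 to 0.0665, *Clec9a* from -0.43 to 0.54, *Cd79a* from -0.42 to 0.11, *Pf4* from -0.24 to 0.38 and *Anxa2* from -0.0326 to 0.49. Total counts alone put *Ctsb*, *Cd44* and *Alb* at 0.0547, 0.0508 and 0.15, and at least 10 counts in every library put *Alb* at 0.00577. Limma-voom put *Alb* and *Clec9a* at 0.72 and 0.16, and the replicate block at 0.84 and 0.10. The hepatocyte covariate put *Cd44*, *Alb*, *Csf3r*, *Clec9a* and *Cd79a* at 0.0191, 0.11, 0.0290, 0.33 and 0.11. Without the 2 libraries richest in hepatocyte transcripts *Cd44*, *Marco*, *Alb* and *Pf4* were at 0.00466, 0.0149, 1.31 and -0.14. Depth limits *Ly6c2* most among the members (29 to 81 counts per library), then *Chil3* (52 to 509 counts), and other low genes such as *Pglyrp1* (11 to 39 counts).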
